A study of Homo sapiens with 8 samples.

Results

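The transcripts described here encode 6 matrix metalloproteinases (MMP1, MMP2, MMP3, MMP9, MMP10 and MMP14) and the 4 tissue inhibitors of metalloproteinases (TIMP1, TIMP2, TIMP3 and TIMP4). They were taken by symbol as 10 of the 25369 genes in the count table, and 8 of the 10 passed the filter on low counts. The list was selected on earlier results of these same counts, among them the differences of MMP2 and MMP9 between stiff and soft matrices. Differences of the members between matrices and between days are therefore given as a description. RNA-seq was performed on LX-2, an immortalized human hepatic stellate cell line, in 8 libraries. Cells were cultured on a hydrogel of 2 kPa (soft) or 40 kPa (stiff) for 2 or 4 days, with 2 libraries for each of the 4 conditions. All cells came from tissue culture plastic and were plated on fibronectin-coated polyacrylamide, so the soft gel was the control and no library came from plastic. One cell line gives no measure of how stellate cells of different donors vary.

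Matrix metalloproteinases are zinc-dependent enzymes that cut extracellular matrix proteins and are made as inactive proenzymes. TIMPs bind the active site of the mature enzyme and block it, so the ratio of the inhibitors to the enzymes is commonly used as an index of matrix turnover. In the liver, activated stellate cells make both, and TIMP1 is known for its rise in fibrosis.

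Library totals ran from 19955975 to 27263935 counts. The replicates of the stiff matrix at 4 days stood apart from each other: their counts differed by 152 times the sampling variance, against 4.03 to 24.9 times in the other conditions. Results that turn on these libraries are given without each of them below. The mesenchymal markers VIM and COL1A1 were abundant (FPKM 921 to 2938 and 83.9 to 172). COL1A2 (0.389 to 0.734), PDGFRA (0.0127 to 0.154) and GFAP (0.0242 to 0.166) were low, and COL3A1 ran from 0.962 to 7.30. The stellate cell markers LRAT and DES were at or near 0 in every library, and 7 or 8 of 13 listed stellate markers reached an FPKM of 1. FPKM is a fragment count corrected for transcript length and library depth. Of the 7 leukocyte markers, CD68 and CD14 reached that level, PTPRC lay between 0.0678 and 0.381, and the summed level ran from 48.8 to 58.4 at 2 days and from 56.3 to 66.8 at 4 days. Endothelial markers summed to at most 0.236, and of 7 hepatocyte markers SERPINA1 alone reached 1. Of 5 epithelial markers, KRT7 and SOX9 reached 1, and the summed level ran from 12.5 to 15.1 at 2 days and from 16.1 to 23.3 at 4 days. The stellate marker sum also separated the days (1350 to 1795 and 2309 to 3690). VIM (921 to 2938) and TAGLN (218 to 601) made up most of this sum, so it does not show that the stellate markers rose as a set. The part of these markers in the results was not tested.

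Promoter sequences were held for 5 of the 10 genes: MMP10, MMP14, TIMP1, TIMP3 and TIMP4. Those of TIMP3, the member that rose most between the days, of the abundant MMP14 and of MMP10, which was barely detected, are shown to set the letters beside the levels. Each is the 250 bases before the gene's start in RefSeq (GRCh38.p14), written 5′ to 3′ on the gene's strand, with matches to the AP-1 motif TGANTCA, the TATA box TATAAA and the GC box GGGCGG on either strand in capitals. TIMP3 is read from chr22:32801455-32801704 (plus strand), MMP14 from chr14:22836335-22836584 (plus strand) and MMP10 from chr11:102780629-102780878 (minus strand).
TIMP3: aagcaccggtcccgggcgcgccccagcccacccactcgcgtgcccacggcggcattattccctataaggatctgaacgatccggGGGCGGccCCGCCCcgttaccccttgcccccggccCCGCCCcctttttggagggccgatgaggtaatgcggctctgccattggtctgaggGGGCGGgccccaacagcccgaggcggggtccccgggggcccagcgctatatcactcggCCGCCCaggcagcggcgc
MMP14: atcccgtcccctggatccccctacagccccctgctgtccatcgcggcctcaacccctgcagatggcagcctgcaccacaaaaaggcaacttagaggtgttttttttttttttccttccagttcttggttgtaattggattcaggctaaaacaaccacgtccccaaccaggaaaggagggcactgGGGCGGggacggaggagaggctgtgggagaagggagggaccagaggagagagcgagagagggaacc
MMP10: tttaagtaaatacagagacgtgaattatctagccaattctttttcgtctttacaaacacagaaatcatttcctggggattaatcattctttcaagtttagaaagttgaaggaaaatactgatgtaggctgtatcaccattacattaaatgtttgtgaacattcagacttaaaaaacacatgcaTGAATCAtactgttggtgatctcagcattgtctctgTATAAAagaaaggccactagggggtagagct
The TIMP3 sequence held 5 GC boxes and was 72.4% G or C, against a median of 58.0% over all promoters. MMP14 held 1 GC box, 66 bases before the start. MMP10 was 34.4% G or C and held an AP-1 match 67 bases and a TATA box 31 bases before its start, with no GC box. Of 27305 promoters of the same length, 6.60% held the AP-1 letters, 11.1% the TATA box and 42.3% the GC box. Among the other members held, TIMP1 had 2 GC boxes and TIMP4 had 1. These matches describe letters and not sites of binding.

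TIMP1 and TIMP2 were more abundant than every MMP in every library. On the length-corrected FPKM scale, the mean level over the 8 libraries was 249.6 for TIMP1 and 156 for TIMP2, with overlapping ranges. MMP1, MMP14 and TIMP3 followed at 21.5, 21.2 and 20.6, and their ranges over libraries overlapped. MMP9 was next at 4.03 and MMP2 at 1.83, and their ranges also overlapped. MMP3 was at 0.277, its range overlapping that of MMP2, and MMP10 and TIMP4 lay at the limit of detection. Of all 28 MMP and TIMP genes in the table, 8 had an FPKM of at least 1 in every library, and 5 (MMP8, MMP13, MMP20, MMP26 and MMP27) had no count in any library.

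**Figure D1:**
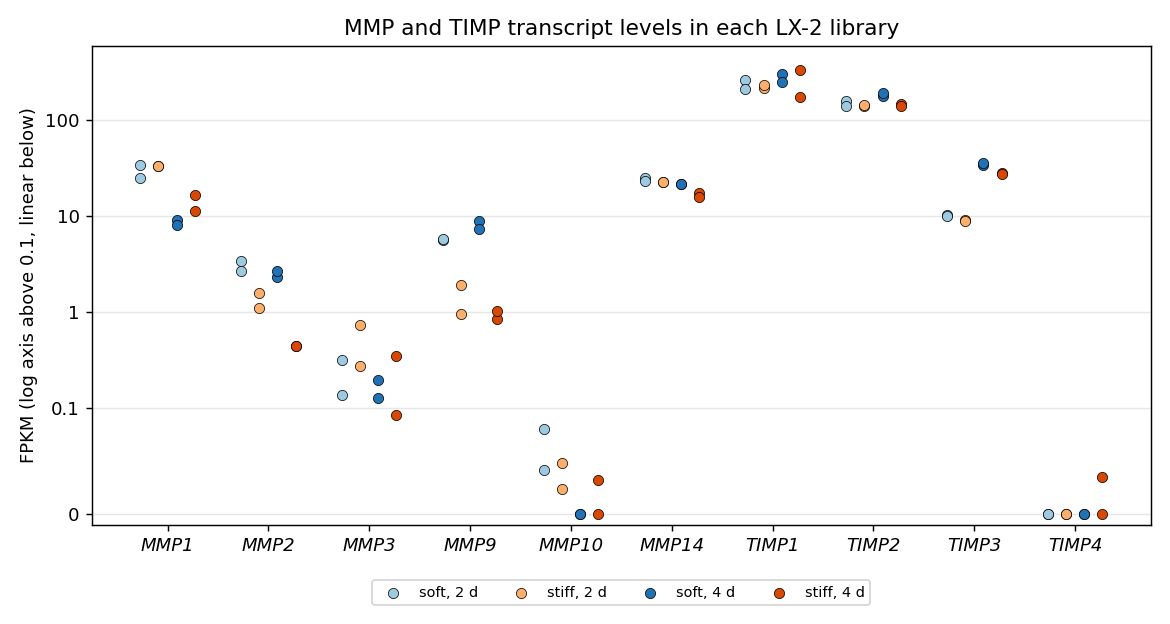
FPKM of the 10 genes in each of the 8 libraries, with 2 points per condition and a log axis above 0.1. TIMP1 and TIMP2 lie above all MMPs in every library, MMP2 and MMP9 separate the matrices, and MMP1 and TIMP3 separate the days.

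MMP1, the interstitial collagenase that cuts fibrillar collagen, had the highest mean FPKM of the 6 listed MMPs at 2 days and fell between the days. At 2 days its FPKM was 25.1 and 33.9 on the soft and 33.8 and 33.8 on the stiff matrix. It then was 9.07 and 8.06 on the soft and 11.4 and 16.6 on the stiff matrix at 4 days. Every 4-day library lay below every 2-day library, and the stiff 4-day pair exceeded the soft 4-day pair. From 2 to 4 days MMP1 fell by 1.76 on the log2 scale on the soft matrix (SE 0.223, 3.40-fold, adjusted p = 0.00275, edgeR quasi-likelihood test) and by 1.26 on the stiff matrix (SE 0.219, 2.39-fold, adjusted p = 0.00695). Without either stiff 2-day library the latter gave adjusted p = 0.052 and 0.0646. The difference between matrices at 4 days was 0.70 (SE 0.221), higher on the stiff matrix, the opposite sign to the gelatinases. It ranged from 0.41 to 0.97 with any 1 library left out.

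MMP2 and MMP9, the gelatinases that cut denatured collagen and the type IV collagen of basement membranes, had less transcript in cells on the stiff gel at each time. MMP2 was at an FPKM of 3.39 and 2.67 on the soft and 1.10 and 1.56 on the stiff matrix at 2 days. At 4 days it was at 2.33 and 2.70 on the soft and 0.444 and 0.444 on the stiff matrix. MMP9 was at 5.61 and 5.73 on the soft and 0.951 and 1.92 on the stiff matrix at 2 days, and at 8.87 and 7.31 against 0.835 and 1.02 at 4 days. The matrices did not overlap for either gene at either day. The 4-day differences were -2.50 for MMP2 (SE 0.255, 5.67-fold) and -3.13 for MMP9 (SE 0.32, 8.75-fold) on the log2 scale. Lower transcript per library can come from fewer cells making it or from less RNA per cell, and bulk libraries cannot tell these apart.

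Over time, MMP2 passed the test on the stiff matrix and MMP9 on neither. On the stiff matrix MMP2 fell by 1.57 on the log2 scale from 2 to 4 days (SE 0.258, 2.96-fold, adjusted p = 0.00588), although without the second stiff 2-day library this gave adjusted p = 0.0594. On the soft matrix its change was -0.25 (SE 0.216, adjusted p = 0.416). MMP9 changed by 0.53 on the soft matrix (SE 0.273, adjusted p = 0.183) and by -0.62 on the stiff matrix (SE 0.333, adjusted p = 0.2). Without either stiff 4-day library the soft-matrix change of MMP9 passed, with adjusted p = 0.0205 and 0.0246.

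MMP3 and MMP10 are the stromelysins, which cut proteoglycans and activate other proenzymes, and they lie beside MMP1 on chromosome 11. MMP3 gave 7 and 16 counts on the soft and 12 and 32 on the stiff matrix at 2 days, and 5 and 8 against 13 and 3 at 4 days. The replicates spread as widely as the conditions, and its 4-day difference between matrices was 0.48 with a 95% confidence interval of -1.50 to 2.47 on the log2 scale. MMP10 gave 4, 2, 2 and 1 counts in the 2-day libraries and 1 count in a single 4-day library, too few to be tested. In the 3 libraries with no count, 3 counts, the limit that 0 allows, correspond to 0.135 to 0.147 CPM (a gene's count scaled to the library's effective size). These limits cover counting error only.

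MMP14 is a membrane-anchored protease that activates the MMP2 proenzyme together with TIMP2. Its FPKM was 24.9 and 23.2 on the soft and 22.8 and 22.7 on the stiff matrix at 2 days. It was 21.6 and 21.5 against 17.5 and 15.9 at 4 days. Its levels stayed within a narrow band, lowest in both stiff 4-day libraries. Between the days MMP14 fell on the stiff matrix by 0.43 (log2 scale, SE 0.124, 1.35-fold, adjusted p = 0.0361). This call was lost without any 1 of the soft or stiff 2-day libraries or the soft 4-day libraries (adjusted p 0.0693 to 0.197). On the soft matrix the change was -0.14 (SE 0.123, adjusted p = 0.437). Between matrices at 4 days it differed by -0.38 (SE 0.124).

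TIMP1, a secreted inhibitor with little activity against MMP14, showed no separation of conditions. Its FPKM was 263 and 214 on the soft and 217 and 233 on the stiff matrix at 2 days. At 4 days it was 305 and 251 on the soft and 174 and 339 on the stiff matrix, so that the stiff 4-day replicates held both the lowest and the highest value of the study. The 4-day difference between matrices was -0.12 (95% confidence interval -0.78 to 0.55), 0.30 without the first and -0.67 without the second stiff library. Between days on the stiff matrix the change of 0.20 (SE 0.288, adjusted p = 0.624) became 0.61 (adjusted p = 0.00169) and -0.37 (adjusted p = 0.0514) without the first and the second stiff 4-day library. The order of TIMP1 between matrices thus turned on which stiff library was kept.

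TIMP2, the inhibitor that also bridges MMP14 and the MMP2 proenzyme, was at 158 and 141 on the soft and 142 and 145 on the stiff matrix at 2 days. At 4 days it was at 181 and 194 on the soft and 148 and 140.2 on the stiff matrix. The soft 4-day libraries stood above all others. The change between days on the soft matrix was 0.35 (SE 0.134, adjusted p = 0.0908), and it passed the test without either stiff 4-day library (adjusted p = 0.0149 and 0.0142). On the stiff matrix the change was 0.02 (SE 0.134) and turned to -0.11 with no scaling between libraries. The 4-day difference between matrices was -0.39 (SE 0.134).

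TIMP3, an inhibitor that binds to the matrix and also blocks ADAM and ADAMTS proteases, rose most of the 8 tested members between the days. Its FPKM was 10.2 and 10.1 on the soft and 9.18 and 9.01 on the stiff matrix at 2 days. By 4 days it reached 34.6 and 36.3 on the soft and 28.0 and 27.6 on the stiff matrix. Replicates agreed closely and neither days nor matrices overlapped. TIMP3 rose by 1.82 on the log2 scale on the soft matrix (SE 0.12, 3.53-fold, adjusted p = 0.00104) and by 1.62 on the stiff matrix (SE 0.12, 3.08-fold, adjusted p = 0.000846). It differed between matrices by -0.16 (SE 0.117) at 2 days and by -0.36 (SE 0.116) at 4 days. TIMP4, the remaining inhibitor, gave 1 count in 1 stiff 4-day library and none in the other 7, where 3 counts correspond to at most 0.147 CPM.

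Counted over the members, the matrix comparison gave 0 of 8 at 2 days in the edgeR test, where 0% of 14570 genes passed. 2 members, MMP2 and MMP9, had an unadjusted p under 0.05 (2.82% of all genes). Both passed in DESeq2 (0.18% of genes) and when either stiff 4-day library was left out (0.792% and 0.813% of genes). The matrices did not overlap for 4 of 8 members (48.2% of genes). At 4 days 2 of 8 passed, both lower, where 0.247% of all genes passed and 0.213% were lower. 6 of 8 had an unadjusted p under 0.05 (6.93% of genes), and the libraries of the 2 matrices did not overlap for 6 of 8 (25.7% of genes). These counts describe genes listed with the matrix comparison known. The 2 calls were lost when any 1 soft library was left out (adjusted p 0.0899 to 0.126), where 0% of all genes passed. The differences themselves stayed at -2.61 to -2.38 for MMP2 and -3.27 to -2.97 for MMP9 with any 1 of the 8 libraries left out. Neither passed with a fit of the compared libraries only (0% of genes), with limma on log2(FPKM + 1) without a filter (0.15%) or with voom quality weights (0.0275%). Without the first stiff 4-day library 6 members passed, MMP1 higher and MMP2, MMP9, MMP14, TIMP2 and TIMP3 lower, where 31.1% of all genes passed in that fit. Without the second one 3 passed, MMP2, MMP9 and TIMP1, all lower, where 3.63% of genes passed. The effect of stiffness differed between the days for 0 of 8 members (2 at an unadjusted p under 0.05, against 1.95% of all genes, and 0% after adjustment). DESeq2 also gave 0, and 2 members, MMP1 and MMP2, passed without the first stiff 4-day library, where 20.9% of genes passed. For time, 2 of 8 members passed on the soft matrix (27.4% of genes), TIMP3 higher and MMP1 lower, and the days did not overlap for 5 of 8 (75.3% of genes). MMP9 and TIMP2 passed as well without either stiff 4-day library (52.9% and 52.7% of genes). For the stiff matrix, 4 of 8 passed (27.6% of genes), TIMP3 higher and MMP1, MMP2 and MMP14 lower, and the days did not overlap for 4 of 8 (62.7% of genes). With a fit of the compared libraries only, 0 of 8 passed (0% of genes; adjusted p = 0.0513 for TIMP3 and 0.064 for MMP1), and with voom weights 2 passed, MMP1 and TIMP3 (13.9% of genes). TIMP3 alone passed without the second stiff 2-day library (3.14% of genes), whereas 6 passed without the first stiff 4-day library, MMP3 lower and TIMP1 higher beside these 4 (52.1% of genes). The median change over the 8 tested members was 0.05 on the soft matrix, with 4 above and 4 below 0, and -0.53 on the stiff matrix, beside 0.02 and 0.03 over all genes. The soft 2-day libraries enter both the matrix and the time comparisons, as do the others, so these comparisons share samples.

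**Figure D2:**
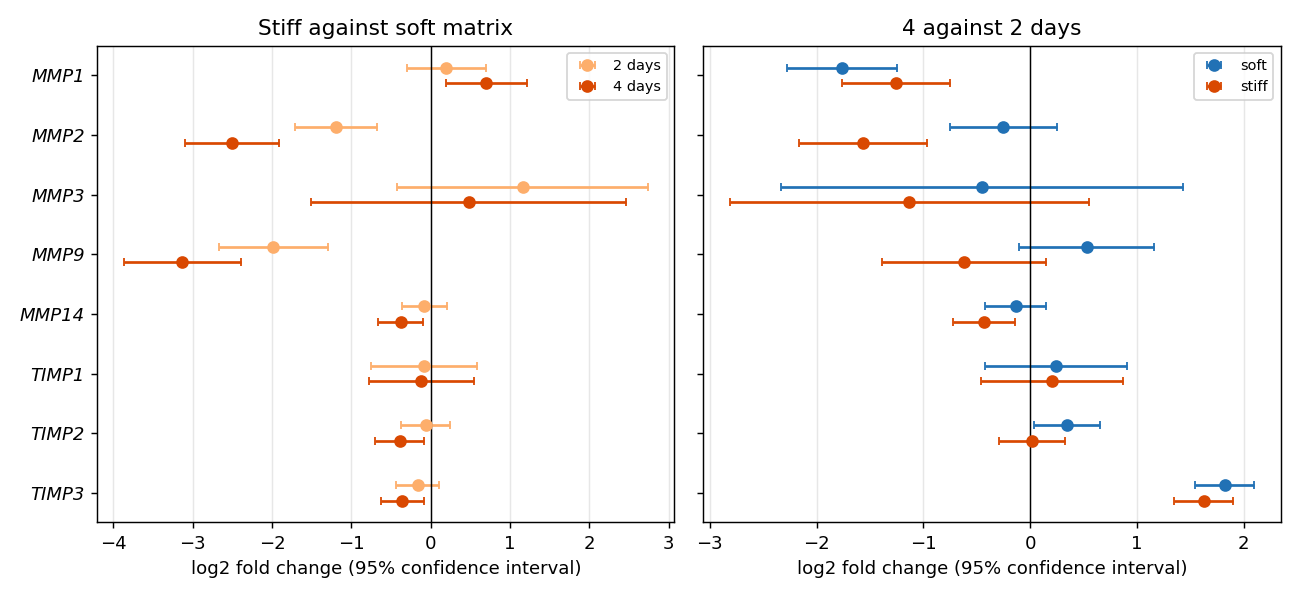
Log2 fold changes with 95% confidence intervals for the 8 tested members, stiff against soft (left, at 2 and 4 days) and 4 against 2 days (right, on each matrix). MMP2 and MMP9 lie furthest below 0 on the left, and MMP1 (below 0) and TIMP3 (above 0) lie apart from 0 on both matrices on the right.

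The members fell into different patterns of variation over the 8 libraries. The sum of squares of log2 CPM was split into matrix, day, their interaction and replicates. Matrix held 92.2% of it for MMP9 and 72.3% for MMP2. Day held 97.4% for TIMP3 and 85.7% for MMP1. MMP14 was divided between day (49.6%) and matrix (32.4%), and TIMP2 between matrix (40.8%) and day (27.6%). Differences between replicates held 83.5% for TIMP1 and 56.4% for MMP3, so most of what varied in these 2 genes was not shared by the replicates of a condition.

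**Figure D3:**
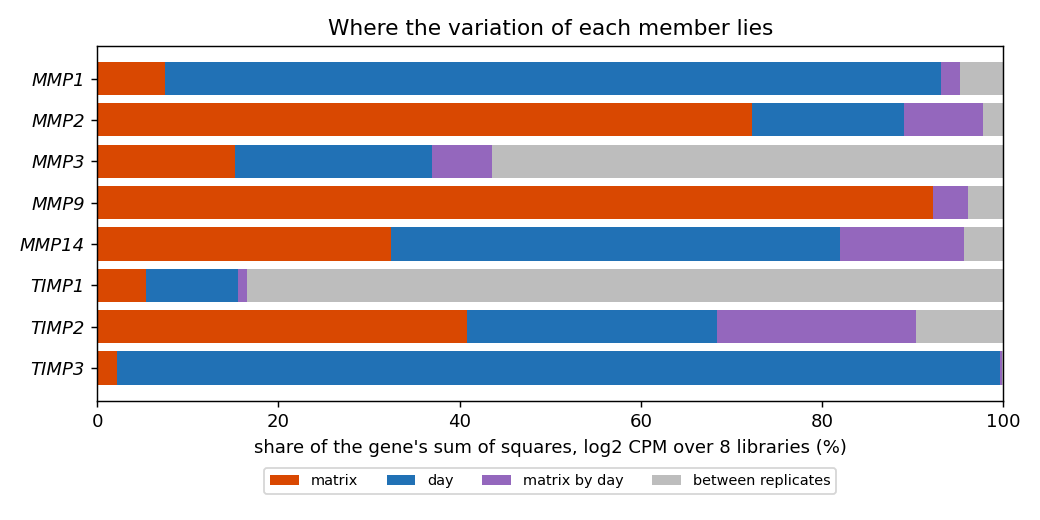
Share of each gene's sum of squares of log2 CPM over the 8 libraries held by matrix, day, matrix by day and replicates. Matrix is the longest segment for MMP9 and MMP2, day for TIMP3 and MMP1, and replicates for TIMP1 and MMP3.

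In FPKM sums, which TIMP1, TIMP2, MMP1 and MMP14 dominate, the balance of the 4 inhibitors to the 6 proteases separated the days, and the matrices overlapped. Summed TIMP over summed MMP FPKM within a library was 7.28 and 5.56 on the soft and 6.25 and 6.38 on the stiff matrix at 2 days. At 4 days it was 12.4 and 12.1 on the soft and 11.5 and 14.9 on the stiff matrix. All 4-day libraries lay above all 2-day libraries. The mean log2 ratio of MMP to TIMP sums differed between stiff and soft by 0.01 at 2 days and -0.10 at 4 days. The 4-day value was -0.58 as a difference of mean log2(FPKM + 0.1), which weights each gene equally, and 0.27 without MMP2 and MMP9. The matrix difference in the balance thus depended on how the genes were weighted. The MMP sum was 59.1 and 65.8 on the soft and 58.9 and 60.7 on the stiff matrix at 2 days, and 42.0 and 39.8 against 30.4 and 34.1 at 4 days. The TIMP sum was 431, 366, 368 and 387 in the 2-day libraries and 521, 482, 350 and 507 in the 4-day libraries, in the same order. No test was made on these sums, since the members were chosen.

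Single pairs behaved differently from the sum. TIMP2 over MMP2 was 46.6 and 53.0 on the soft and 129 and 92.9 on the stiff matrix at 2 days, and 77.9 and 72.0 against 334 and 316 at 4 days. TIMP1 over MMP9 was 46.9 and 37.4 against 228 and 121 at 2 days, and 34.4 and 34.3 against 209 and 332 at 4 days. For both gelatinases, the ratio was thus higher on the stiff matrix in every library. TIMP1 over MMP1 went the other way at 4 days, at 33.6 and 31.2 on the soft and 15.3 and 20.4 on the stiff matrix, after 10.5 and 6.32 against 6.42 and 6.90 at 2 days. TIMP2 over MMP14 did not separate the matrices, at 6.35 and 6.11 against 6.24 and 6.39 at 2 days and 8.38 and 9.02 against 8.48 and 8.83 at 4 days. TIMP3 over MMP14 lay between 0.398 and 0.437 in the 2-day libraries and between 1.60 and 1.74 in the 4-day libraries, with the matrices overlapping at 4 days.

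**Figure D4:**
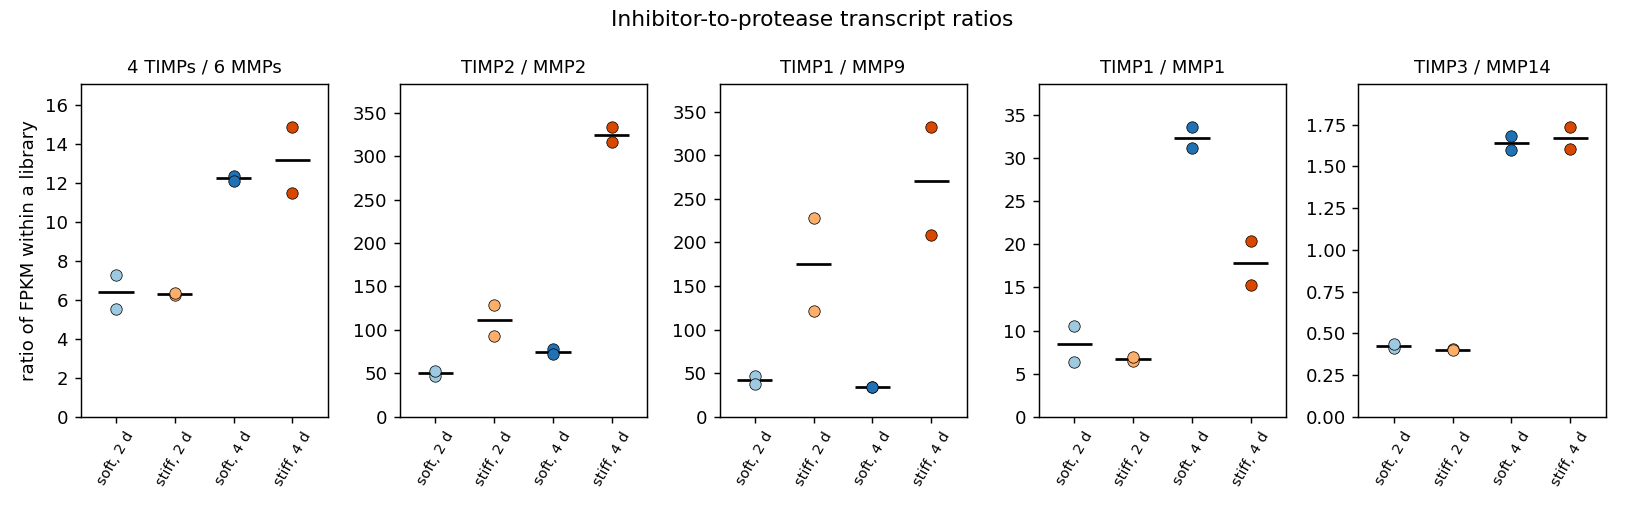
Ratios of FPKM within each library for the summed inhibitors and proteases and for 4 single pairs, with 2 points and their mean (line) per condition. The summed ratio and TIMP3 over MMP14 separate the days, and TIMP2 over MMP2 and TIMP1 over MMP9 separate the matrices.

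The makeup of the protease transcripts differed between the matrices in each library. MMP2 and MMP9 together held 15.2% and 12.8% of the MMP sum on the soft and 3.48% and 5.73% on the stiff matrix at 2 days. They held 26.6% and 25.2% against 4.20% and 4.30% at 4 days. MMP1 held 46.9% ± 6.45 (SD, n = 2) on the soft and 56.5% ± 1.18 on the stiff matrix at 2 days, and 20.9% ± 0.944 against 43.0% ± 8.09 at 4 days. Without MMP2 and MMP9, the MMP sum of the 2-day cells was 53.8 ± 5.13 (soft) and 57.1 ± 0.223 (stiff), and that of the 4-day cells was 30.3 ± 0.744 (soft) and 30.9 ± 2.44 (stiff). The other 4 proteases together thus differed between matrices by less than the larger of the replicate SDs at both days.

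The genes whose levels across the 8 libraries were most like each member differed from member to member. Likeness was Pearson's r of log2 CPM over the same 8 libraries, which share conditions and depth, and it is given with no test. MMP9 was closest to LIPG (0.992), IRF9 (0.991) and OASL (0.985), IRF9 being a subunit of the interferon-activated transcription complex and OASL an interferon-induced gene. MMP2 was closest to MRC2, a collagen uptake receptor (0.973), the cytoplasmic RNA sensor regulator DHX58 (0.972) and the cytokine CSF2 (0.970). TIMP3 was closest to TFPI, an inhibitor of the coagulation protease cascade (0.998), ARL6IP5 (0.996) and MTRF1 (0.995). MMP14 was closest to CHST11 (0.978), PIK3C2B (0.977) and CDKN1A (0.973), and TIMP2 to RAB31 (0.973), BACE1 (0.964) and PAQR8 (0.955). TIMP1 was closest to NUDT18 (0.984), KRT18 (0.983) and PTGIR (0.977), MMP1 to LOC100131315 (0.985), ANKRD23 (0.980) and WTH3DI (0.979), and MMP3 to C3orf67 (0.920), MCTS2P (0.911) and SYNRG (0.886).

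The wider metalloproteinase pathway was followed through 67 further genes, of which 43 were tested. They were 18 other MMPs, 14 ADAMs, 19 ADAMTS proteases and 16 regulators of MMP activation or clearance. Some ADAMs are membrane-bound sheddases, and some ADAMTS proteases cut proteoglycans or procollagens. Between the matrices 0 of 43 passed at either day in the edgeR test, with 3 and 7 at an unadjusted p under 0.05 (2.82% and 6.93% of all genes) and 1 and 3 in DESeq2 (0.18% and 1.05% of genes). From 2 to 4 days 3 rose and 11 fell on the soft matrix, and 4 rose and 14 fell on the stiff matrix. Over all genes 14.1% rose and 13.3% fell on the soft, and 14% and 13.7% on the stiff matrix. These counts turned on single libraries: without any 1 soft library 1 to 3 passed on the soft matrix (2.32% to 8.22% of all genes), and without the second stiff 2-day library 1 passed on the stiff matrix (3.14%). Without the first stiff 4-day library 27 passed over time on the soft (52.9% of all genes) and 29 on the stiff matrix (52.1%), and 16 passed between matrices at 4 days (31.1%). The median change of the 43 was -0.28 and -0.34, beside 0.02 and 0.03 over all genes.

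Of the other MMPs, 8 were tested and MMP11, MMP15, MMP16, MMP17 and MMP24 did not pass in any comparison. MMP19, a protease of basement membrane proteins, rose with time by 0.76 (SE 0.152, adjusted p = 0.011) on the soft and 0.82 (SE 0.154, adjusted p = 0.00902) on the stiff matrix. MMP25, a membrane-anchored protease, fell by 1.05 (SE 0.25, adjusted p = 0.0194) and 1.16 (SE 0.252, adjusted p = 0.0145). MMP23A also fell, but it is a pseudogene whose 50-base words are 100% shared with MMP23B, so its counts are uncertain. Of 14 ADAMTS genes tested, 1 rose and 5 fell on the soft matrix and 3 rose and 5 fell on the stiff matrix. Over all genes, 14.1% rose and 13.3% fell on the soft matrix, and 14% rose and 13.7% fell on the stiff matrix. ADAMTS1, an aggrecan-cleaving protease, rose by 1.26 (SE 0.132, adjusted p = 0.00165) on the soft and 1.01 (SE 0.131, adjusted p = 0.00281) on the stiff matrix. ADAMTS14, which trims procollagen, fell by 1.54 (SE 0.327, adjusted p = 0.0133) and 1.63 (SE 0.367, adjusted p = 0.0163), and ADAMTS9 fell by 1.13 (adjusted p = 0.0465) and 2.22 (adjusted p = 0.00675). ADAMTS2, a procollagen protease, fell by 1.12 (adjusted p = 0.027) on the soft and 0.99 (adjusted p = 0.0462) on the stiff matrix, and ADAMTS7 fell by 1.07 (adjusted p = 0.0104) and fell by 1.66 (adjusted p = 0.00297). ADAMTS5, another aggrecan-cleaving protease, rose by 1.84 (adjusted p = 0.0316) on the stiff matrix, beside 1.18 (adjusted p = 0.118) on the soft matrix. ADAMTS13 fell by 2.33 (adjusted p = 0.0272) on the stiff matrix, beside -1.43 (adjusted p = 0.0851) on the soft matrix. Some of these changes rest on few counts. Over both stiff 4-day libraries ADAMTS9, ADAMTS13 and ADAMTS14 gave 20, 18 and 17 counts. ADAMTS5 gave 34 on the soft and 27 on the stiff matrix over both 2-day libraries. Of 10 ADAMs tested, 3 fell on the soft and 5 on the stiff matrix and none rose (13.3% and 13.7% of all genes fell). THBS1, which encodes thrombospondin, a matricellular protein that binds MMPs, rose by 1.16 (SE 0.253, adjusted p = 0.0144) on the soft matrix, beside 0.70 (adjusted p = 0.0747) on the stiff matrix. Of 11 regulators tested, 1 rose and 1 fell on the soft matrix (14.1% and 13.3% of all genes). On the stiff matrix 2 fell (13.7% of all genes).

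**Figure D5:**
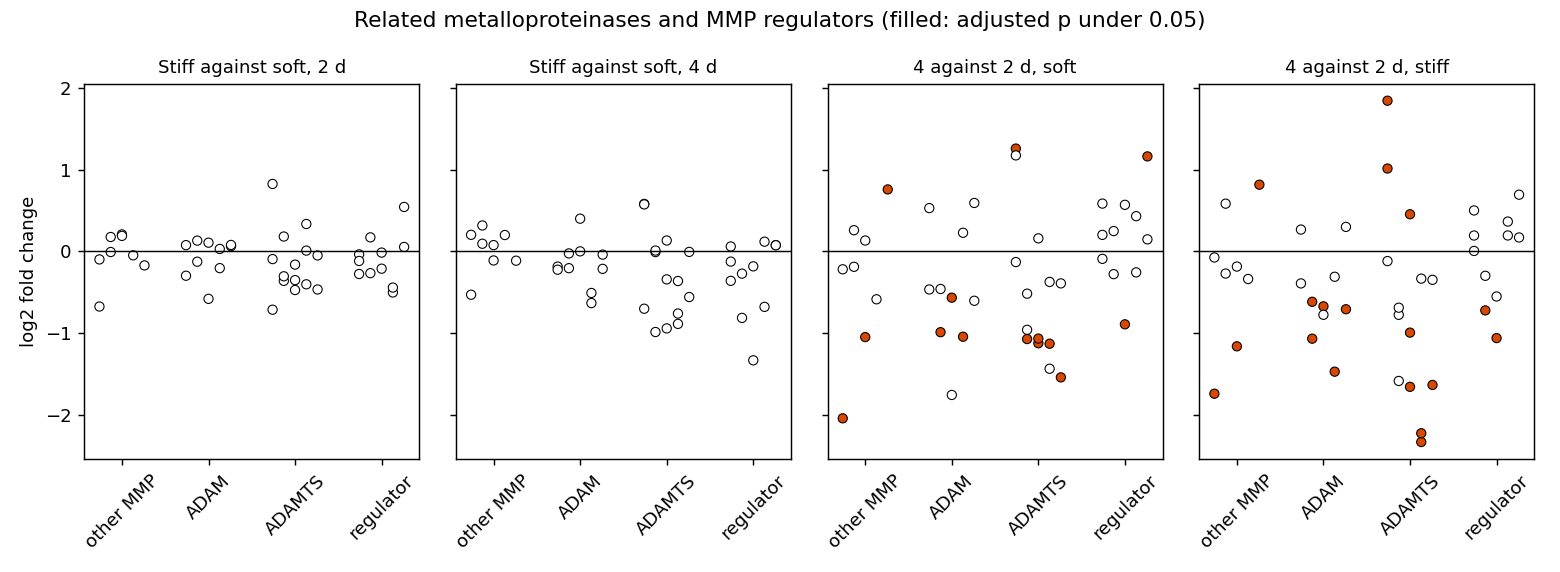
Log2 fold changes of the 43 tested related genes by list in the 4 comparisons, filled where the adjusted p is under 0.05. No point is filled between the matrices, and of the filled points between the days 11 of 14 on the soft and 14 of 18 on the stiff matrix lie below 0.

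The members lie, on GRCh37, at chromosome 11 from 102660132 to 102668891 (MMP1), 102706532 to 102714340 (MMP3) and 102641233 to 102651359 (MMP10), chromosome 16 from 55423612 to 55540603 (MMP2), chromosome 20 from 44637547 to 44645200 (MMP9) and chromosome 14 from 23305769 to 23318250 (MMP14). TIMP1 lies on chromosome X from 47441807 to 47446188, TIMP2 on chromosome 17 from 76849059 to 76921469, TIMP3 on chromosome 22 from 33197691 to 33259028 and TIMP4 on chromosome 3 from 12194568 to 12200412. Exons of MMP1 and MMP3 overlap the antisense pseudogene WTAPP1, and those of MMP9 overlap SLC12A5-AS1 and those of TIMP4 overlap SYN2 on the other strand, and the library kit did not mark strand. Reads of the shared bases therefore cannot be assigned to a strand. Counts assigned to WTAPP1 were 0 to 3 and to SYN2 0 or 1 per library, against 375 to 1934 for MMP1 and 3 to 32 for MMP3. TIMP2 shares exonic bases with CEP295NL on its own strand and with the lncRNA ENSG00000267601 on the other, and MMP2 with ENSG00000279030 on its own strand. MMP3 and MMP10 share 59 of their 50-base words (3.18% and 3.36%).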

How the data were processed

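The authors deposited gene counts and FPKM values for 8 LX-2 libraries. Per the labels and submitters' notes, reads were trimmed with Trim Galore, aligned with STAR 2.7.1a to hg19 and counted with HTSeq; the strand setting and annotation are not given in the sources used here. The deposited FPKM were scaled by median-of-ratios size factors. The members and gene lists were chosen with earlier results of these data known. Counts were fitted in edgeR 4.0.16 (R 4.3.3; TMM factors, filterByExpr, quasi-likelihood test) over all 8 libraries and 4 conditions, with Benjamini-Hochberg adjustment over 14570 genes and a cutoff of 0.05. P-values set each difference against a spread between replicates estimated over all 4 conditions together, with 2 libraries in each. DESeq2 1.42.0, limma 3.58.1 on log2(FPKM + 1), voom weights, other scalings and filters, and left-out libraries were alternatives. Named were all members, the other MMPs tested, up to 5 called genes per comparison from the remaining lists, and the 3 genes most alike each member. The fit was tested on simulated data with 200 genes changed in the stiff 4-day libraries. Between matrices at 4 days edgeR recovered 174 with 14 false calls, and DESeq2 recovered 175 with 36. At 2 days, where nothing was changed, edgeR made 0 false calls and DESeq2 made 6. The simulation gave the stiff 4-day pair the same spread as the other libraries, unlike these data.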

Additional observations from a re-analysis of the deposited data

How the results depend on the processing

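Of 775 values of single members under alternatives, 702 kept their direction and side of the cutoff and 16 changed direction, 14 of them with a library left out. A further 31 fell out of the cutoff and 26 came within it. Limits: 2 libraries per condition, 1 pair of which stood apart, leave adjusted calls between matrices dependent on single libraries, and MMP3, MMP10 and TIMP4 on few counts. The cause of the changes below was not tested.

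Members passing between matrices at 2 days numbered 0, and the number varied with 1 library left out. It was 2 with DESeq2 (0.18% of genes), with a fit of the compared libraries only (4.67%) and with voom quality weights (1.28%). At 4 days they numbered 2, and the number varied with 1 left out. It was 0 with the separate fit (0% of genes, adjusted p 0.285 for MMP2 and 0.212 for MMP9). It was also 0 with limma on log2(FPKM + 1) without a filter (0.15%) and with voom weights (0.0275%). The change of the stiffness effect gave 0 (0 to 2 with 1 left out). Over time on the soft matrix 2 members passed, and the number varied with 1 left out. With the separate fit 4 passed (MMP1, MMP9, TIMP2 and TIMP3), where 50.7% of genes passed. On the stiff matrix 4 passed, and the number varied with 1 left out. It was 0 with the separate fit (0% of genes) and 2 with voom weights (13.9%).

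Related genes passing between matrices at 2 days numbered 0, and the number varied with 1 left out. It was 1 with DESeq2 (0.18% of genes), 8 with the separate fit (4.67%) and 3 with voom weights (1.28%). At 4 days they numbered 0, and the number varied with 1 left out. It was 3 with DESeq2 (1.05% of genes). Over time on the soft matrix 14 passed (27.4% of genes; 1 to 27 with 1 left out). The number was 26 with the separate fit (50.7% of genes) and 25 with voom weights (49.1%). With limma on log2(FPKM + 1) without a filter it was 9 (10.9%). On the stiff matrix 18 passed (27.6% of genes; 1 to 29 with 1 left out). The number was 0 with the separate fit (0%) and 6 with voom weights (13.9%). Shares of all genes at the ends of these ranges are given with the related genes above.

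The log2 ratio of summed MMP to summed TIMP FPKM, stiff minus soft, was 0.01 at 2 days, -0.0309 with summed counts and -0.32 as a difference of mean log2(FPKM + 0.1) (-0.18 to 0.21 with 1 library left out). At 4 days it was -0.10, 0.27 without MMP2 and MMP9, 0.0255 with all MMP genes and -0.58 as a difference of means (-0.281 to 0.0904 with 1 left out). With no scaling factors the median of all genes shifted by -0.11 between matrices at 4 days and by -0.13 between days on the stiff matrix; TIMP2 between days on the stiff matrix was then -0.11, and -0.000699 with no filter beyond 1 count (-0.0168 to 0.0473 with 1 left out).

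With 1 library left out, direction changed for MMP1 at 2 days (-0.000622 to 0.43), for MMP3 between matrices at 4 days (-0.76 to 1.10), in its interaction (-1.91 to 0.18) and between days on soft (-0.94 to 0.27). It changed for TIMP1 between matrices at 2 days (-0.224 to 0.0746) and 4 days (-0.67 to 0.30), in its interaction (-0.58 to 0.38) and between days on stiff (-0.37 to 0.61), and for TIMP2 between matrices at 2 days (-0.141 to 0.0237).

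Replicate numbers were shared by all conditions, but deviations of same-numbered libraries correlated at -0.04 (2 days), -0.49 (4 days), 0.08 (soft) and 0.02 (stiff) over 14570 genes, so the numbers were not taken as pairs. With the replicate number as a block (replicate block), members passing were 0, 2, 0, 2 and 3 in the 5 comparisons. The shares of all genes passing were 0%, 0.0961%, 0%, 18% and 17.5%. Related genes between days on soft were then 9. With the pairing crossed in the stiff 4-day libraries, an alternative chosen after seeing the data, members passing were 0, 2, 0, 2 and 4. The shares of all genes were then 0%, 0.426%, 0%, 31.2% and 31.2%.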
